A study of Saccharomyces cerevisiae with 6 samples.

Results

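The pentose phosphate pathway and cytosolic NADPH supply were examined through 10 budding yeast genes, chosen by name and found among the 7126 features of each expression table. Polyadenylated RNA was sequenced from 3 strains described as S288c and grown in rich glucose medium (YPD), with 2 libraries per strain. The strain called wild type (Wt-M11) was labelled MAT a with ade2-1, leu2-3, ura3, trp1-1 and can1-100, his3-11,15, GAL and [phi+], and with HIS3 and KanMX6 inserted between YKL006C-A and YKL006W on chromosome XI. Its source name describes a single chromosome XI. D8A and D8B carry 1 shared genotype label, which gives MATa with his3, leu2, met15 and ura3. In that label tsa1 and gpx3 are replaced by KAN, tsa2 by LEU2, dot5 by MET15, ahp1 by HIS3, prx1 and gpx1 by URA3, gpx2 by HYG and srx1 by NAT. The 8 thiol peroxidases so removed reduce peroxides, and SRX1 is the sulfiredoxin that repairs oxidised peroxiredoxins. No label says how D8A and D8B differ. Wild type differs from both in the deleted genes, in the listed alleles and in the insertion on chromosome XI. The alleles ade2-1, trp1-1 and can1-100 are given for wild type only. In every comparison with wild type the deletions and these other strain differences cannot be told apart. Whether wild type and the null strains share the rest of their genome was not tested, and the same holds for differences there. The labels do not tell whether the replicates were grown apart, and the p-values below rest on library-to-library spread alone, which may be technical.

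Levels are given in FPKM, fragment counts scaled by feature length and by the library's mapped total. Estimated depth ran from 4023000 to 14154000 fragments per library and was lowest in D8A replicate 1, which correlated with the other libraries at r = 0.909 to 0.938 across 6925 features, while the other library pairs lay at 0.934 to 0.976. Of the 9 genes labelled as deleted, 8 were near or at 0 in all 4 libraries labelled null. The highest of these was TSA1, with 6.42 to 9.94 FPKM there against 2029 and 1723 in wild type, and the others held at most 1.64. The TSA1 values lay above every value of TKL2 and within the ranges of SOL4 and GND2, the low genes given below. The origin of that TSA1 signal was not tested. SRX1 went against its label, with 52.8 and 76.8 FPKM in wild type and 319 to 654 FPKM in the libraries labelled null. Every direction below therefore rests on labels that SRX1 does not match. The a-cell markers STE2, MFA1, MFA2 and BAR1 summed to 6884 to 10970 FPKM per library and the alpha-cell markers STE3, MF(ALPHA)1 and MF(ALPHA)2 to 35.5 to 55.5 FPKM, with no marker at 0. Most of the a-cell sum came from MFA1 and MFA2, features of 111 and 117 bp. Their FPKM was 28.2 to 35.2 times the midpoint of the deposited interval, so the size of that sum is uncertain. STE2 held 113 to 200 FPKM and BAR1 33.7 to 66.1.

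The oxidative branch of the pathway turns glucose 6-phosphate into ribulose 5-phosphate and reduces NADP to NADPH at its first and last steps. The non-oxidative branch then exchanges carbon between pentose phosphates and glycolysis by reversible reactions. In the yeast cytosol the other well known source of NADPH is acetaldehyde dehydrogenase Ald6, which makes acetate. NADPH is the electron donor of thioredoxin reductase and glutathione reductase, which keep the peroxide-reducing enzymes supplied with electrons. Glucose 6-phosphate dehydrogenase, transketolase and 6-phosphogluconate dehydrogenase are therefore long-standing subjects of work on oxidant tolerance in yeast.

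ALD6 alone among the 10 genes differed between the libraries labelled null and wild type beyond the test's threshold. It rose on average 3.36-fold, with a mean of 521 ± 77.9 FPKM (SD, n = 2) in the wild-type strain and of 1753 ± 348 FPKM (SD, n = 4) in the others. The 9 enzymes of the pathway proper did not pass in any comparison of that fit, with log2 changes from -0.47 to 0.45 for the mean of both null strains. GND2 passed as lower in D8B only when the fit was restricted to features of at least 300 bp. Also listed were 11 genes for other sources of NADPH and their relatives and 14 genes for users of NADPH. Of these, 7 passed for the mean of both null strains and all 7 were lower, among them POS5, MAE1, IDP2 and GDH1. Over all features 4.91% passed as lower and 1.55% as higher.

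**Figure D1:**
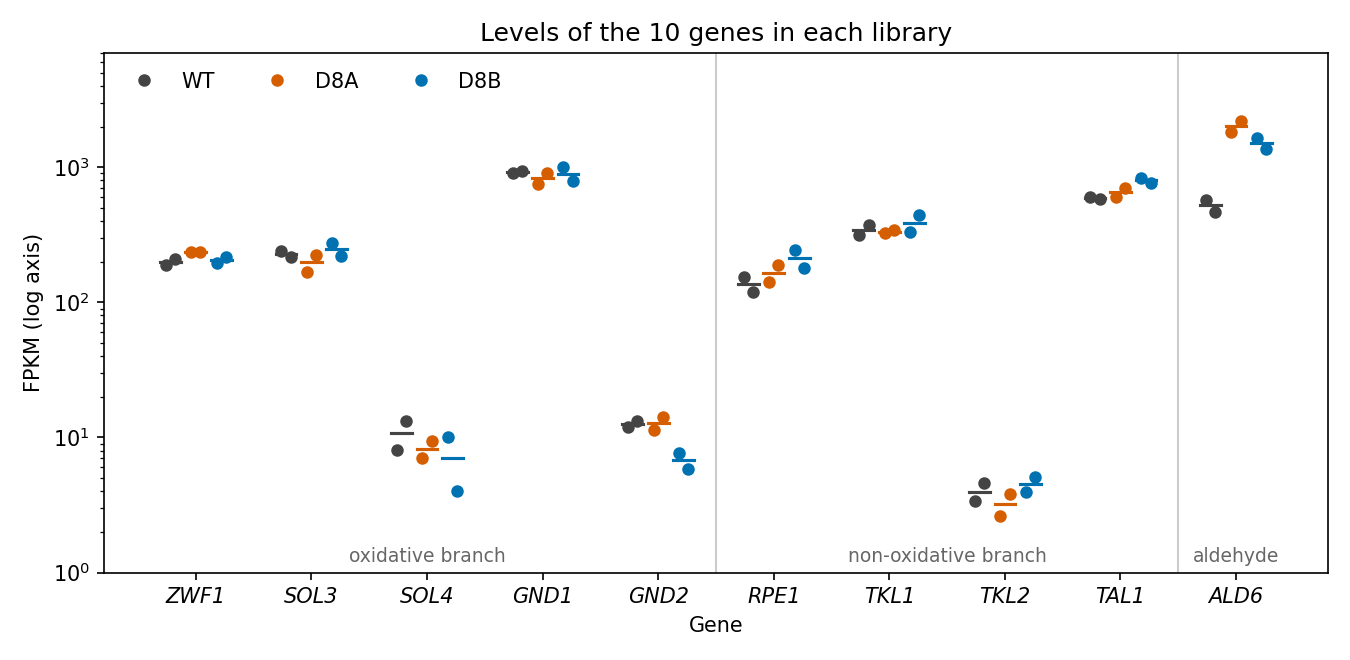
FPKM of each gene on a log axis, with 1 point per library and a bar at the mean of each strain's 2 libraries. ALD6 lies at 466 and 577 FPKM in wild type and at 1356 to 2185 FPKM in the other 4 libraries, while the strains lie close together for ZWF1, SOL3, GND1 and TKL1.

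The first step is made by ZWF1 (YNL241C, chromosome XIV, 196426 to 197943, R64), glucose 6-phosphate dehydrogenase. ZWF1 was measured at 188 and 208 FPKM for wild type, 237 and 234 for D8A and 196 and 217 for D8B. Both D8A libraries lay above wild type, whereas D8B spanned the higher wild-type value. The log2 change of log2(FPKM + 1) was 0.25 in D8A (95% confidence interval -0.24 to 0.74) and 0.06 in D8B (-0.43 to 0.55), and neither passed (limma adjusted p = 0.556 and 0.911). ZWF1 had the narrowest range of the 10 genes over the 6 libraries, 0.33 on the log2 scale.

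The lactone made by Zwf1 is opened by 6-phosphogluconolactonase, encoded by SOL3 (YHR163W, chromosome VIII, 423724 to 424473) and its minor paralogue SOL4 (YGR248W, chromosome VII, 985972 to 986739). SOL3 held 239 and 218 FPKM for wild type, 169 and 226 for D8A and 273 and 220 for D8B. The strains overlapped, and the log2 change was -0.22 in D8A and 0.10 in D8B (limma adjusted p = 0.657 and 0.876). SOL4 was far lower, at 8.14 and 13.3 FPKM for wild type, 7.05 and 9.46 for D8A and 10.02 and 3.9995 for D8B. These values rest on an estimated 20.5 to 93 fragments per library, and the replicates of SOL4 differed by more than the strain means in wild type and D8B, though not in D8A (log2 change for the mean of both null strains -0.47, limma adjusted p = 0.502).

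The third step, 6-phosphogluconate dehydrogenase, yields the second NADPH and is encoded by GND1 (YHR183W, chromosome VIII, 470960 to 472429) and GND2 (YGR256W, chromosome VII, 1004624 to 1006102). GND1 was the highest of the 10 genes in wild type, at 904 and 939 FPKM, and held 754 and 905 in D8A and 997 and 794 in D8B. Its strains overlapped, with a log2 change of -0.10 for the mean of both null strains (95% confidence interval -0.60 to 0.40, limma adjusted p = 0.822). GND1 shares 453 bp with the annotated feature YHR182C-A, and whether counting used strand is not given, so reads of the overlap cannot be told apart. GND2 held 11.9 and 13.2 FPKM for wild type, 11.3 and 14.1 for D8A and 7.70 and 5.82 for D8B. Both D8B libraries lay below the 4 others, which overlapped. The log2 change of GND2 was -0.81 ± 0.24 (SE) against wild type and -0.82 ± 0.24 against D8A, and neither passed over all features (limma adjusted p = 0.111 and 0.315). With the fit restricted to features of at least 300 bp, GND2 passed as lower in D8B than in wild type (limma adjusted p = 0.0309), and its difference from D8A did not (adjusted p = 0.0817).

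In the non-oxidative branch, RPE1 (YJL121C, chromosome X, 190374 to 191090) encodes ribulose 5-phosphate epimerase. RPE1 held 155 and 119 FPKM for wild type, 142 and 188 for D8A and 246 and 180 for D8B. D8B lay above wild type, D8A overlapped it, and the log2 change in D8B was 0.63 (95% confidence interval 0.00 to 1.25, limma adjusted p = 0.259). RPE1 shares 69 bp with YJL120W.

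Transketolase moves 2-carbon units between sugar phosphates and is encoded by TKL1 (YPR074C, chromosome XVI, 692796 to 694838) and TKL2 (YBR117C, chromosome II, 474392 to 476437). TKL1 held 317 and 374 FPKM for wild type, 326 and 343 for D8A and 334 and 440 for D8B, and the strains overlapped (log2 change 0.06 for the mean of both null strains, limma adjusted p = 0.9). TKL2 was the lowest of the 10 genes by its mean, at 3.36 and 4.60 FPKM for wild type, 2.64 and 3.80 for D8A and 3.98 and 5.07 for D8B. Wild type overlapped both null strains, and the log2 change for their mean was -0.04 (limma adjusted p = 0.946). Both D8B libraries lay above both D8A libraries, and that difference of 0.40 did not pass (limma adjusted p = 0.734). An estimated 22.2 to 115 fragments per library stood behind its values. TKL2 shares 335 bp with YBR116C.

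TAL1 (YLR354C, chromosome XII, 836350 to 837357) encodes transaldolase, which moves 3-carbon units. TAL1 held 602 and 577 FPKM for wild type, 603 and 707 for D8A and 833 and 767 for D8B. All 4 libraries labelled null lay above both wild-type libraries, D8A replicate 1 by a margin of about 1 FPKM. The log2 change was 0.15 in D8A and 0.44 in D8B and did not pass (limma adjusted p = 0.758 and 0.349). By strain, ZWF1, TAL1 and ALD6 lay above wild type in D8A (3 of 10 genes, against 25.3% of all features) and 0 lay below (26.1%). In D8B, RPE1, TAL1 and ALD6 lay above (3 of 10, against 30%) and GND2 below (1 of 10, against 25.9%). D8B lay above D8A for TAL1 and TKL2 (2 of 10, against 19.7%) and below it for ZWF1, GND2 and ALD6 (3 of 10, against 15.1%). TAL1 and ALD6 were the 2 of 10 genes with every null library above wild type, against 15.2% of all features, and 0 of 10 lay wholly below it, against 16.3%.

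ALD6 (YPL061W, chromosome XVI, 432588 to 434090) encodes the main cytosolic acetaldehyde dehydrogenase, which reduces NADP while it makes acetate. ALD6 held 577 and 466 FPKM for wild type, 1830 and 2185 for D8A and 1642 and 1356 for D8B. Wild type did not overlap with either null strain, D8A was the highest, and the lowest null value was over 2 times the highest wild-type value. The log2 change was 1.95 ± 0.26 (SE) in D8A and 1.52 ± 0.26 in D8B (limma adjusted p = 0.00587 and 0.0177), and 1.73 ± 0.23 for the mean of both (adjusted p = 0.00418). Its difference between D8B and D8A, -0.42 (95% confidence interval -1.02 to 0.18), did not pass (limma adjusted p = 0.675). Without wild-type replicate 2, whose ALD6 value was the lower, the log2 change for the mean of both null strains was 1.58 and no longer passed (limma adjusted p = 0.0982). Without D8A replicate 1 it was 1.80 and passed (adjusted p = 0.0106). In D8B alone the ALD6 call was also lost without wild-type replicate 1 or either D8B library, and with a replicate block (limma adjusted p = 0.0837, 0.0885, 0.0558 and 0.0728).

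The bases upstream of the start codon are shown for ALD6, the gene that rose, and for ZWF1, the entry enzyme with the narrowest range, as 300 bases on the coding strand (R64 genome from RefSeq, chrXVI:432288-432587, plus strand, and chrXIV:197944-198243, minus strand). Capitals mark the core of the stress response element, AGGGG, and its reverse complement.
ALD6: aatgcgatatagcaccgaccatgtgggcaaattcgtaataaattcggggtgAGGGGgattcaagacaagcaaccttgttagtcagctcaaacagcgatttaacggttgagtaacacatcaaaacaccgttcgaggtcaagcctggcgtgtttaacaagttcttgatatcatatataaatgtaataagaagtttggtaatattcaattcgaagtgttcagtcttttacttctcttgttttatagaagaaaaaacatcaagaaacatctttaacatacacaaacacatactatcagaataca
ZWF1: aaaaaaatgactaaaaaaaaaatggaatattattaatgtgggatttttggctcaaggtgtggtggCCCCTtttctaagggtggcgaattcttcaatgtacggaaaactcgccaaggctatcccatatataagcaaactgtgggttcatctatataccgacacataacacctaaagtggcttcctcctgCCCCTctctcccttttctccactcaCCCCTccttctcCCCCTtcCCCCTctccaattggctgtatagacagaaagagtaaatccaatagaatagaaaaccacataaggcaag
AGGGG on either strand was found once before ALD6 and 5 times before ZWF1. Of the 10 genes 8 had it in this window, against 22.2% of 6001 windows before protein-coding genes. CGGNNTTA, a form of the site of Stb5, an activator of pathway genes under oxidant stress, was searched on both strands and found before GND1 (2 matches), GND2 and SOL3, against 8.4% of all windows. TTACTAA, a site of the oxidative stress factor Yap1, was found before TKL2 only, on either strand, against 7.8% of all windows. ALD6 had neither of these exact strings in its window, and other forms of the Stb5 and Yap1 sites were not searched. A match is a string of letters and not evidence of binding.

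Over the 10 genes, 1 passed as higher and 0 as lower when the null strains were averaged and set against wild type. Of all 6925 features 6.45% passed there, and 1.55% of all features passed as higher. The same counts held in D8A, with a background of 5.05% (1.23% higher), and in D8B, with 4.9% (1.21% higher), and the gene was ALD6 each time. Between D8B and D8A 0 of 10 passed in limma, against a background of 0.332% (0.217% higher and 0.116% lower). GND2 alone of the 10 had an unadjusted p under 0.05 there, a level at which the share over all features was not computed. Leaving out wild-type replicate 2 reduced the count against wild type to 0 in all 3 comparisons. The median log2 change was 0.01 over the 10 genes and 0.01 over all features.

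**Figure D2:**
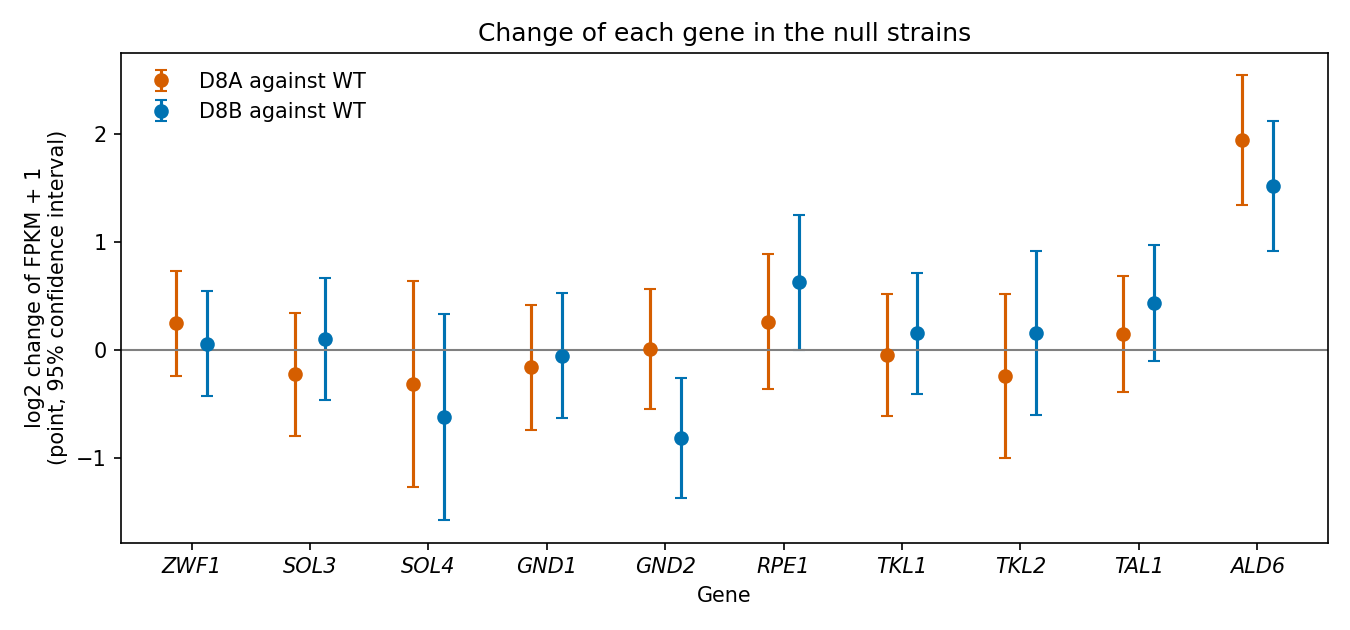
Change of log2(FPKM + 1) against wild type for each gene, with the point estimate of limma and its 95% confidence interval, in D8A and D8B. The intervals of ALD6 lie wholly above 0, those of GND2 and RPE1 exclude 0 in D8B only and did not pass after adjustment, and the others include 0.

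No gene of either branch passed with all 6925 features in the fit, and the medians of the branches are given as a description. For the mean of both null strains the median log2 change was -0.10 over the 5 oxidative genes (1 above and 4 below 0) and 0.17 over the 4 non-oxidative genes (3 above and 1 below 0). In D8B the medians were -0.05 and 0.30, in D8A -0.16 and 0.05. With quantile normalization the non-oxidative median was 0.31 for the mean of both strains. The summed FPKM of the oxidative genes was 1.25 and 1.30 times that of the non-oxidative genes in wild type, 1.10 and 1.12 times in D8A and 1.05 and 0.89 times in D8B. All 4 libraries labelled null had a lower ratio than wild type. GND1 made up 64% to 67% of the oxidative sum in every library. Because the members were chosen with earlier results known, no p-value is given for these sums.

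In wild type the order from the top was GND1, TAL1, ALD6 and TKL1, and in all 4 libraries labelled null it was ALD6, GND1, TAL1 and TKL1. SOL3, ZWF1 and RPE1 followed and changed places among libraries. SOL3 was above ZWF1 in wild type and D8B and below it in D8A, and RPE1 was below both except in D8B replicate 1, where it was above ZWF1. FPKM exceeded the midpoint of its own deposited interval by 1.30 to 1.35 times for the short genes SOL3 and RPE1, by 1.12 to 1.14 times for ZWF1 and not for GND1 (0.99 to 1.00). By interval midpoints ZWF1 was above SOL3 in wild-type replicate 2, in D8A and in D8B replicate 2, so their order depends on the value used. GND2 and SOL4 also exchanged places among libraries, and TKL2 was last in all libraries but D8B replicate 2. ALD6 held 19.2% and 15.9% of the summed FPKM of the 10 genes for wild type, 44.8% and 45.4% for D8A and 36.1% and 34.0% for D8B. The sum of the 9 others ran from 2251 to 2901 FPKM, with the lowest and the highest value both in libraries labelled null.

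Each major enzyme was paired with a minor paralogue of the same reaction, and the minor copy stayed minor in every library. TAL1 was paired with NQM1 (YGR043C, chromosome VII, 580435 to 581436), a transaldolase paralogue outside the 10 genes. Of the summed FPKM of SOL3 and SOL4, wild type had 3.29% and 5.76% in SOL4, against 4.01% and 4.02% in D8A and 3.54% and 1.79% in D8B. GND2 held 1.30% and 1.38% of its pair for wild type, 1.48% and 1.54% for D8A and 0.77% and 0.73% for D8B. Both D8B libraries were thus lowest for GND2, and the strains did not overlap. TKL2 held 0.80% to 1.22% of its pair, and wild type overlapped both null strains. NQM1 held 3.70% and 5.75% for wild type, 4.11% and 4.63% for D8A and 2.13% and 2.44% for D8B, where it was again lowest. NQM1 itself (23.1 and 35.2 FPKM in wild type, 18.1 and 19.2 in D8B) did not pass (log2 change -0.59 in D8B, limma adjusted p = 0.259). The coding sequences of GND1 and GND2 were 79.1% identical with a longest shared run of 20 bases, and the other pairs were 58.5% to 69.4% identical with runs of 8 to 17 bases.

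**Figure D3:**
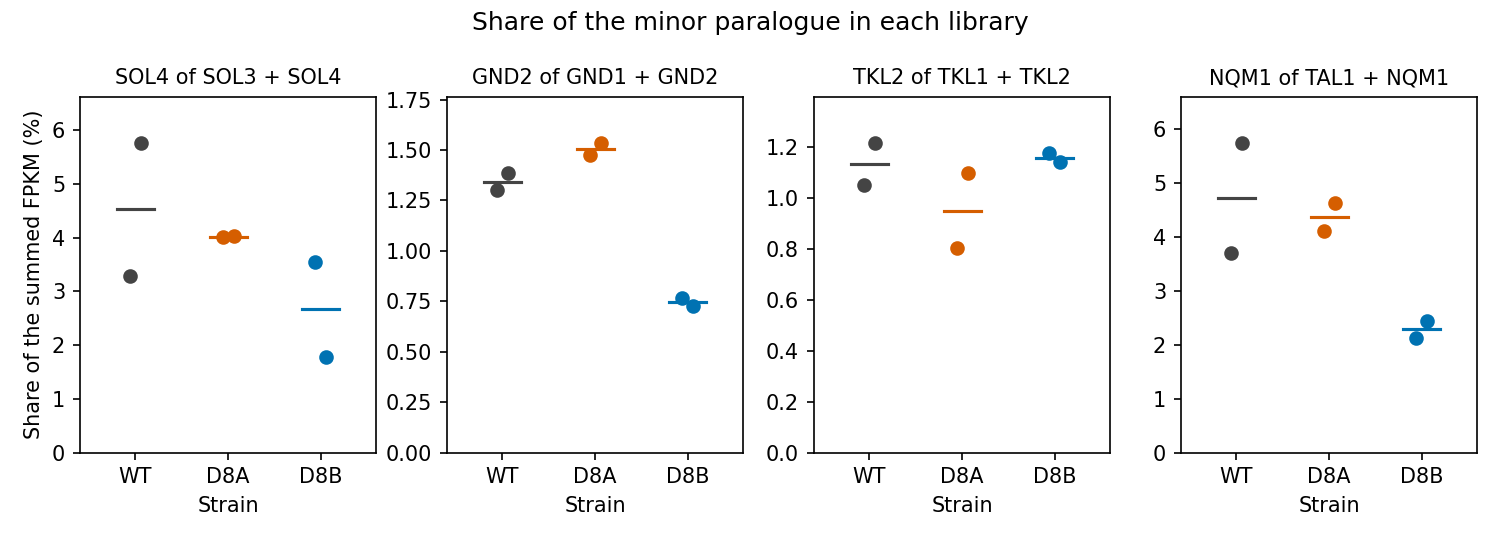
Share of the minor paralogue in the summed FPKM of its pair, in percent from 0, with 1 point per library and a bar at the mean of 2. The D8B points lie lowest for GND2 (0.73% and 0.77%) and NQM1 (2.13% and 2.44%), and wild type overlaps both null strains for TKL2.

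Minor paralogues of this pathway are known as genes of glucose limitation and general stress, so 12 markers of that state are given beside them. Wild type had a summed marker level of 1026 and 1216 FPKM, against 669 and 992 in D8A and 759 and 578 in D8B, and none was at 0. FPKM was 5.73 to 7.56 times the interval midpoint for DDR2 (186 bp) and 2.01 to 2.45 times for HSP12 (330 bp). The size of that sum is therefore uncertain. Of the 12, HSP12 and GPH1 (glycogen phosphorylase) fell, against 4.91% of all features, and HXK1 (hexokinase isoenzyme 1) rose, against 1.55%, for the mean of both null strains. In D8A 2 rose, HXK1 and TSL1 (a subunit of the trehalose synthase complex), against 1.23% of all features, and GPH1 fell, against 3.83%, while HSP12 did not pass (limma adjusted p = 0.0606). In D8B 0 rose, HXK1 not passing (limma adjusted p = 0.0591), and HSP12 and GPH1 fell, against 3.68% of all features. Without wild-type replicate 2 the calls of HSP12, GPH1 and HXK1 for the mean of both null strains were lost, and their highest limma adjusted p over the alternatives was 0.174, 0.0608 and 0.0643. HSP12, a small membrane stress protein, held 240 and 399 FPKM for wild type, 37.0 and 125 for D8A and 50.9 and 51.6 for D8B (log2 change -2.37, limma adjusted p = 0.0214). Between D8B and D8A 0 of 12 markers passed in limma, and 5 had an unadjusted p under 0.05 (share over all features not computed). The part of culture state in the GND2 and NQM1 values was not tested.

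Of 8 further pathway enzymes 0 passed in limma for the mean of both null strains, against 6.45% of all features, and 0 had an unadjusted p under 0.05, with log2 changes from -0.36 to 0.30. By strain 0 passed as well, against 5.05% of all features in D8A and 4.9% in D8B, with 1 at an unadjusted p under 0.05 in D8A and 2 in D8B. The first was SHB17, sedoheptulose bisphosphatase, with both D8A libraries below wild type (log2 change -0.63, limma adjusted p = 0.221), and the others were RKI1, higher, and NQM1, lower (limma adjusted p = 0.259 for each). RKI1, ribose 5-phosphate isomerase, held 132 and 99.5 FPKM for wild type, 93.7 and 115 for D8A and 180 and 158 for D8B. Its D8B libraries were the highest and its D8A libraries overlapped wild type (log2 change 0.69 between D8B and D8A, limma adjusted p = 0.415). Of 6 genes that use ribose, chiefly the PRS genes for phosphoribosyl pyrophosphate synthetase, 0 passed in limma for that mean or in either strain. At an unadjusted p under 0.05 there were 0 for the mean, 1 in D8A and 0 in D8B. The 1 was PRS3, at 233 and 221 FPKM in wild type and 132 to 218 in the libraries labelled null, all below wild type (log2 change -0.56 in D8A, limma adjusted p = 0.267). STB5, the activator named above, held 8.19 and 9.31 FPKM in wild type and 7.11 to 11.2 in the libraries labelled null, with overlap (log2 change 0.17, limma adjusted p = 0.705). Of 5 listed regulators 0 passed in limma, with 2 at an unadjusted p under 0.05 (share over all features not computed). YAP1 held 58.5 and 61.7 FPKM in wild type and 76.8 to 111 in the libraries labelled null (log2 change 0.57, limma adjusted p = 0.0988). MSN4 held 45.9 and 57.3 FPKM in wild type and 22.4 to 41.3 in those libraries (log2 change -0.64, limma adjusted p = 0.142).

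Among other sources of NADPH and their relatives, the genes that passed were lower in the null strains. Of 11 such genes, 4 fell and 0 rose for the mean of both null strains, against 4.91% of all features lower, and the median log2 change was -0.70 against 0.01 over all features. All 11 changes were below 0 for the mean of both strains. In D8A alone 4 fell, against 3.83% of all features, and in D8B 2 fell, against 3.68%. Between D8B and D8A 0 of 11 passed in limma and 1 had an unadjusted p under 0.05.

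POS5 (YPL188W, chromosome XVI), the mitochondrial NADH kinase that makes NADPH in the matrix, held 68.8 and 76.2 FPKM for wild type, 25.1 and 33.0 for D8A and 33.0 and 27.3 for D8B. The groups did not overlap, and both null strains lay at similar levels. The log2 change was -1.27 ± 0.19 (SE; limma adjusted p = 0.00667), and the call was also made in D8A and D8B alone (adjusted p = 0.0147 and 0.0183).

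MAE1 (YKL029C, chromosome XI), the mitochondrial malic enzyme, held 279 and 287 FPKM for wild type, 107 and 115 for D8A and 141 and 174 for D8B. All null values lay below wild type (log2 change -1.09, limma adjusted p = 0.0141), and D8A passed alone where D8B did not (adjusted p = 0.0132 and 0.0713), while their difference did not pass (adjusted p = 0.56). MAE1 shares 388 bp with YKL030W.

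IDP2, cytosolic NADP-dependent isocitrate dehydrogenase and a glucose-repressed gene, held 18.5 and 24.0 FPKM for wild type, 8.64 and 10.2 for D8A and 7.78 and 9.54 for D8B (log2 change -1.14, limma adjusted p = 0.0166). It passed in each null strain alone (adjusted p = 0.0411 and 0.0295). ALD2, a stress-induced cytosolic aldehyde dehydrogenase that prefers NAD, held 26.1 and 32.9 FPKM in wild type and 12.5 to 17.7 in the libraries labelled null (log2 change -0.87, limma adjusted p = 0.0328). The mitochondrial relatives of ALD6 did not pass. ALD5 held 308 and 306 FPKM in wild type and 138 to 246 in the libraries labelled null, all below wild type (log2 change -0.70, limma adjusted p = 0.0903), and ALD4 overlapped (-0.23, adjusted p = 0.564). ALD6 shared 60.3% of coding bases with ALD5 and 64.6% with ALD4, with no exact run over 17 bases.

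Of 14 enzymes that spend NADPH, 3 fell and 0 rose for the mean of both null strains, against 4.91% of all features lower and 1.55% higher. An unadjusted p under 0.05 was reached by 7 of the 14, a level at which the share over all features was not computed. Changes were above 0 for 6 and below for 8, and the median was -0.25 against 0.01 over all features. GDH1, the main NADP-dependent glutamate dehydrogenase, held 708 and 565 FPKM for wild type, 191 and 233 for D8A and 294 and 263 for D8B. The groups were far apart (log2 change -1.38, limma adjusted p = 0.00789), and it passed in each null strain alone (adjusted p = 0.0105 and 0.034). MET10, a subunit of sulfite reductase, held 42.3 and 66.4 FPKM in wild type and 19.0 to 27.6 in the libraries labelled null (-1.28, limma adjusted p = 0.0173). The labels give met15 to the null strains and not to wild type, and they also give MET15 as the marker that replaces dot5 there. ARI1, an NADPH-dependent aldehyde reductase, held 220 and 279 FPKM in wild type and 83.1 to 143 in the libraries labelled null (-1.11, limma adjusted p = 0.0203).

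The reductases that serve peroxide defence did not pass. GLR1, glutathione reductase, had a log2 change of 0.16 (limma adjusted p = 0.661) and TRR1, cytosolic thioredoxin reductase, of 0.17 (adjusted p = 0.728). TRR2, mitochondrial thioredoxin reductase, held 40.4 and 39.9 FPKM in wild type and at most 31.0 in the libraries labelled null, all of them lower (log2 change -0.50, unadjusted p = 0.0142, limma adjusted p = 0.12). OYE2, an NADPH oxidoreductase of the Old Yellow Enzyme family, held 485 and 474 FPKM in wild type and 742 to 877 in the libraries labelled null. These did not overlap, and the log2 change of 0.76 did not pass (limma adjusted p = 0.0613). Leaving out wild-type replicate 2 ended the calls of all 7 genes of these 2 lists named as lower, and leaving out wild-type replicate 1 ended those of all but MET10, where the highest limma adjusted p over the alternatives was 0.383 (ALD2).

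**Figure D4:**
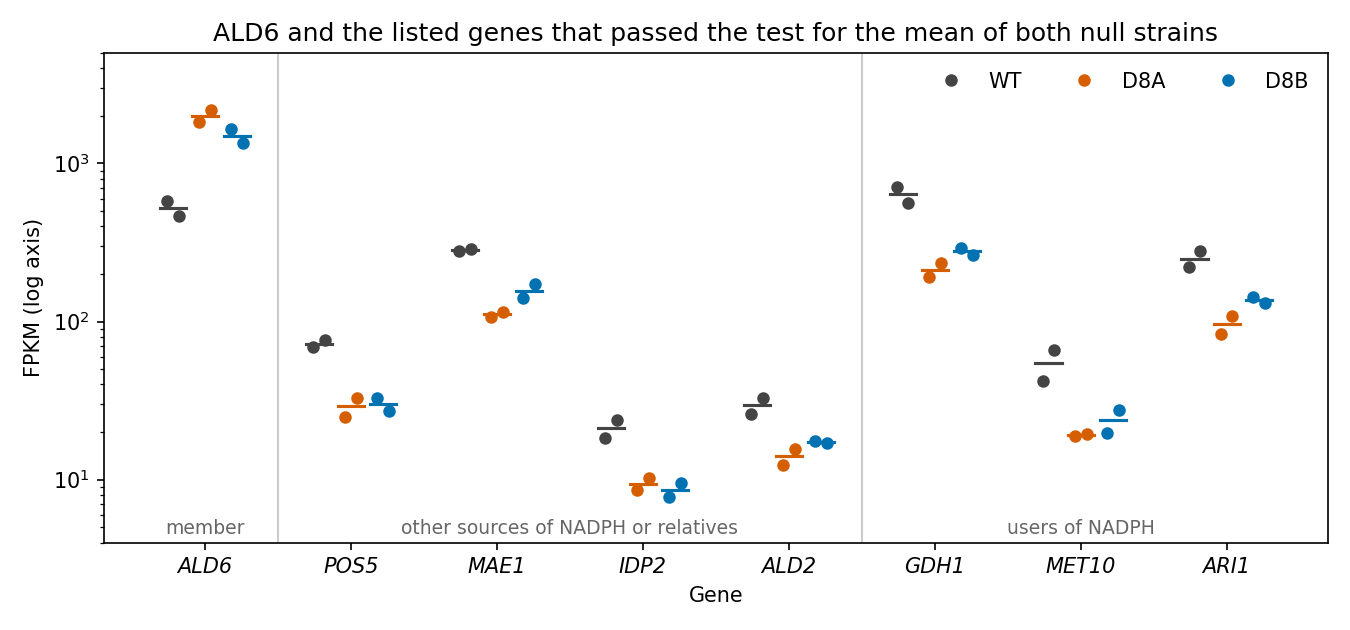
FPKM on a log axis of ALD6 and of the 7 listed genes that passed for the mean of both null strains, with 1 point per library and a bar at each strain's mean of 2. ALD6 is higher and the 7 others are lower in the libraries labelled null, without overlap with wild type.

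The features whose profile over the 6 libraries was most like that of ALD6, the member with the widest range (2.23 on the log2 scale), were sought. The search covered 5468 others with status OK, a length of 300 bp or more and a mean FPKM of at least 10. By root mean square difference of centred log2(FPKM + 1), the nearest was YLR108C at 0.10, followed by BNA5 at 0.18 and YLR232W at 0.23. YLR108C, at 31.3 and 28.8 FPKM in wild type and 83.0 to 137 in the libraries labelled null, ends at 368124 on chromosome XII beside AHP1, a deleted gene that begins at 368781, and what the deletion does to YLR108C was not tested. BNA5, kynureninase of NAD synthesis from tryptophan, and YLR232W share 290 bp, so they are not separate cases.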

How the data were processed

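Expression was measured by RNA sequencing in 6 yeast libraries, 2 for each of 3 strains, grouped by sample title. The deposited values are FPKM with interval bounds, 1 table per library, per the file headers. The submitters' processing notes list Bowtie2 2.1.0, TopHat2 2.0.9, Cufflinks 2.1.1 and the R64 build, without saying what each did. Whether counting used strand is not stated there. Of 7126 features, 7051 had the status OK in every library, and 6925 of these had a mean FPKM of at least 1, all 10 genes among them. Identifiers were matched to the R64 annotation for 6048 features, 6036 with equal coordinates.

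One linear model with a mean per strain was fitted to log2(FPKM + 1) with limma 3.58.1 in R 4.3.3, with variances moderated by mean (3 residual and 4.7 prior degrees of freedom), and tested on simulated data. The pseudocount understates changes of low genes. P-values are two-sided and Benjamini-Hochberg adjusted over all 6925 features, at a threshold of 0.05. Shares of features that passed use this threshold. The share at an unadjusted p under 0.05 was not computed, so counts at that level have no background. Depth was estimated from the interval bounds of each library, which are multiples of a fixed step (92.8% to 94.8% of 400 low bounds within 0.02). Estimated fragments are interval midpoints times length and depth, and cover counting error only.

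The genes, lists and tests were chosen with earlier results of these data known. Named genes were the 10 members, every gene of the pathway, NADPH and regulator lists that passed in any comparison, NQM1, RKI1, STB5 and IDP2, and the 3 features most like the member with the widest range. ALD4, ALD5, GLR1, TRR1, TRR2, OYE2, SHB17, PRS3, YAP1, MSN4 and the culture-state markers that passed were named after their values were seen. Alternatives covered pseudocount, filters, scaling, variances, feature length, interval midpoints, a replicate block and leaving out each library.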

Additional observations from a re-analysis of the deposited data

How the results depend on the processing

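The ALD6 rise kept its direction in all 15 alternatives, with log2 changes of 1.58 to 1.89 for the mean of both null strains, 1.79 to 2.20 in D8A and 1.37 to 1.68 in D8B. With single libraries left out, the count of members that passed ran from 0 to 1 in each of the 3 comparisons with wild type and stayed at 0 between D8B and D8A. In D8B against wild type it was 2 with features of 300 bp or more, where GND2 was added, and 0 with a replicate block. Of 28 calls of 12 genes (ALD6, the 7 lower genes of the NADPH lists, HSP12, GPH1, HXK1 and TSL1), 26 were lost without wild-type replicate 2, 18 when the other wild-type library was left out, 13 without the filter and 10 with the block. The calls that held without wild-type replicate 2 were GPH1 in D8B and HXK1 in D8A. Where a strain was left with 1 library, that library was assumed to vary like the others.

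Counts over all features, in the order both null strains, D8A, D8B (each against wild type) and D8B against D8A, were 447, 350, 339 and 23. Without the filter they were 270, 184, 175 and 11, with robust variances 741, 616, 632 and 116, and with features of 300 bp or more 948, 801, 817 and 197. Quantile normalization gave 685 for both null strains. Interval midpoints gave 671 for both null strains, 594 for D8B and 82 between the strains. Leaving out a library gave 122 to 671, 104 to 472, 104 to 477 and 11 to 104. The replicate block gave 187 in D8A, 213 in D8B and 9 between the strains. Replicate numbers are not said to pair libraries, and differences between replicates 1 and 2 correlated across features at -0.15 for wild type and D8A, 0.33 for wild type and D8B and -0.25 for D8A and D8B, so the numbers were not used as pairs.

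The non-oxidative median became 0.31, 0.20, 0.43 and 0.21 with quantile normalization, in the same order of comparisons, and the GND2 share with interval midpoints 1.24% in wild type and 1.44% in D8A. Between D8B and D8A the branch medians ran from -0.19 to 0.26 (oxidative) and 0.17 to 0.49 (non-oxidative) with a library left out. Small changes of several members turned sign. With quantile normalization GND1 was at 0.034 for both null strains, 0.12 in D8A and -0.17 between the strains, TKL2 at 0.28 and 0.13 and TKL1 at 0.15 in D8A. With a library left out, for both null strains SOL3 ran from -0.165 to 0.043, TKL1 from -0.061 to 0.17 and TKL2 from -0.22 to 0.14. In D8A SOL4 ran from -0.642 to 0.006, GND2 from -0.14 to 0.16 and TKL1 from -0.161 to 0.073. In D8B ZWF1 ran from -0.014 to 0.134, SOL3 from -0.053 to 0.257, GND1 from -0.21 to 0.11, TKL1 from -0.043 to 0.354 and TKL2 from -0.025 to 0.334. Between D8B and D8A SOL4 ran from -0.88 to 0.26 and GND1 from -0.057 to 0.272. The cause of these shifts was not tested. The fewest estimated fragments behind a member were 20.5, for SOL4 in D8A replicate 1.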
